A study of Mus musculus with 12 samples.

Results

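Slc10a1, Cyp7a1 and Cyp27a1 encode the main bile acid uptake carrier of hepatocytes and the enzymes that open the classical and the alternative route of bile acid synthesis. They were chosen by gene symbol from a table of m6A peaks in mouse liver. Each symbol had 1 peak, which was annotated to no other gene, so the 3 genes account for 3 of the 7460 distinct peaks and for 3 of the 5674 annotated genes. A value per peak and a value per gene therefore rest on the same reads and differ only in the set of features they were fitted with. The livers came from male C57BL/6 mice aged 12 weeks. In 1 group hepatic fibrosis had been induced by bile duct ligation (BDL), a surgical closure of the duct that drains bile from the liver, and the other group held normal mice as controls. The labels give neither the time since ligation nor an operation for the controls. The reads came from RNA fragments of about 100 bases enriched with an antibody that recognises m6A, adenosine methylated at its N6 position, which is common within mRNA. There were 3 such immunoprecipitated (IP) libraries in each group, and the non-enriched input libraries were not analysed here. IP reads depend both on how much of a transcript is present and on how much of it carries the mark, and these cannot be told apart. In bulk liver, fewer hepatocytes and less RNA per hepatocyte cannot be told apart either.

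Bile acids circulate between liver and intestine. Slc10a1, also called Ntcp, is the sodium-dependent carrier that brings them back from blood into hepatocytes. Cyp7a1 is a microsomal P450 enzyme that hydroxylates the ring of cholesterol and limits the rate of the classical route. Cyp27a1 is a mitochondrial P450 enzyme that oxidises the sterol side chain and starts the alternative route. Bile acids returning to the liver repress Cyp7a1 transcription through the receptor FXR and its partner SHP, and Cyp7a1 also follows a daily rhythm. In the liver lobule, Cyp7a1 is known to be expressed mostly near the central vein.

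The 3 peaks lay at different places along their genes. The Slc10a1 peak (chromosome 12, 80953233 to 80953432, minus strand) was 200 bases wide and ended 50 bases before the 3′ end of the gene span, at 99.0% of its length. The Cyp7a1 peak (chromosome 4, 6268062 to 6268261, minus strand), also 200 bases wide, lay 2450 bases before the 3′ end, at 74.6% of the span. The Cyp27a1 peak (chromosome 1, 74713599 to 74713648, plus strand) was only 50 bases wide and began 25 bases after the 5′ end of the gene span in the deposited table, while the 3′ end was 24244 bases away. The RefSeq model of Cyp27a1 (GRCm38.p6) starts further upstream, so a place at the 5′ end holds only for the gene span of the table. Coordinates count from 1 in the build of the deposited table, which the sources used here do not name. Exon and untranslated region annotation was not used here.

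A place near the 3′ gene end was more common than a place near the 5′ end. Of the 6474 peaks annotated to 1 gene, 50.3% were centred in the last 10% of the gene span, as the Slc10a1 peak was. A further 7.57% lay between 70% and 80%, as the Cyp7a1 peak did. The first 10% of the span, where the Cyp27a1 peak was centred, held 6.90%. In the narrower window within 100 bases of the 5′ end, 2.83% began, as the Cyp27a1 peak did. Of all distinct peaks 9.93% had a width of 50 bases, the narrowest in the table, against a median width of 175. m6A antibodies are known to bind also m6Am, a related mark on the first transcribed base beside the mRNA cap, and these data do not separate the marks.

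**Figure D1:**
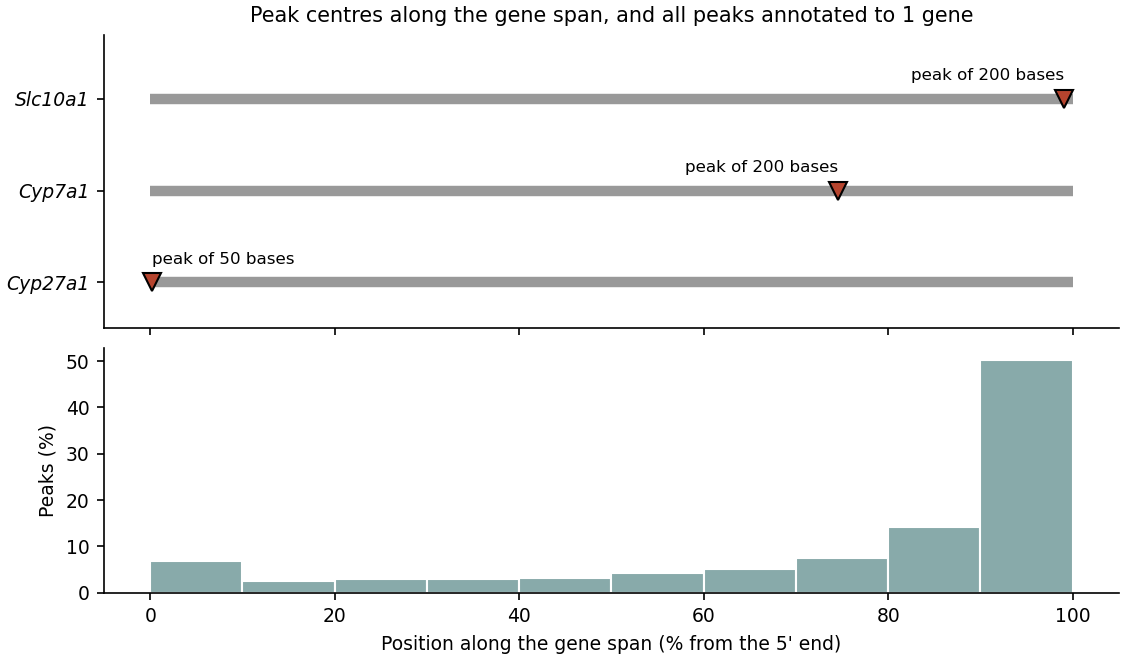
Upper panel, centre of the peak of each gene as a percentage of the gene span, counted from the 5′ end. Lower panel, share of the 6474 peaks of a single gene in each 10% of the span. The Slc10a1 peak sits at 99.0%, the Cyp7a1 peak at 74.6% and the Cyp27a1 peak at the 5′ end.

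Of the members only Slc10a1 passed the test between groups, and its upstream region is shown because its IP reads changed. The sequence gives the 250 bases before the RefSeq start of the gene (RefSeq, GRCm38.p6, chr12:80968706-80968955, minus strand, 5′ to 3′), and the capitals mark CAAAGTC, the core that the liver factor HNF4A is known to prefer.
Slc10a1 upstream region: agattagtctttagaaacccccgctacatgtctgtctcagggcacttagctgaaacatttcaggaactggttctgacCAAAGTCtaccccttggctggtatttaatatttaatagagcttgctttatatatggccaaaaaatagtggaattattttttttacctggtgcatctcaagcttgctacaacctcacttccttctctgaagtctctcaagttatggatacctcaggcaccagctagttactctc
CAAAGTC was searched on both strands after the sequence had been read. It occurred once, with its first base 173 bases before the start, and 3.84% of 32851 RefSeq windows of this length held it. The nuclear receptor half-site AGGTCA, on either strand, was not among these letters and is held by 14% of the windows. An inverted repeat of this half-site was also searched, but it contains the half-site, so its absence follows and adds nothing. A match describes letters only, and binding by HNF4A was not tested. For Hnf4a itself, IP reads per gene differed between BDL and control by -0.28 on the log2 scale (SE 0.19), which did not pass edgeR (adjusted p = 0.371).

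Slc10a1 reads fell in BDL livers. The BDL libraries had 26196, 32122 and 23698 reads in the peak, and the control libraries 32833, 59560 and 59971. Scaled to the size of each library with edgeR's TMM factors (written CPM), these were 1176, 806 and 765 CPM in BDL and 2390, 3591 and 3378 CPM in control. Every BDL value was below every control value, which held for 16.7% of the 7083 tested peaks. Another 20.6% had every BDL value above every control value, so the groups did not overlap in 37.4%. The mean was 916 ± 226 CPM in BDL and 3120 ± 640 CPM in control (SD, n = 3 each). The BDL level was 0.293 of the control level (95% interval 0.202 to 0.426), a log2 change of -1.77 per peak (SE 0.23, edgeR quasi-likelihood test, Benjamini-Hochberg adjusted p = 0.00546). Of all tested peaks 9.16% passed this test at an adjusted p under 0.05, 4.62% as higher and 4.55% as lower in BDL. With genes as the unit the log2 change was -1.79 (SE 0.23, edgeR adjusted p = 0.00163), where 14.7% of 4306 genes passed, 8.2% as higher and 6.55% as lower. The call remained in each of the 6 fits that left out 1 library, with a log2 change per gene between -2.01 and -1.67.

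The reduced Slc10a1 peak was still among the strong ones. By mean CPM it ranked 118th among the 7083 tested peaks in BDL and 39th in control, and 98.3% of peaks were lower than it in the BDL libraries. The highest library exceeded the lowest by 1.54-fold in BDL and by 1.502-fold in control. Of the 500 peaks nearest in level, 88.2% in BDL and 67.6% in control had a smaller SD of log2 CPM than Slc10a1. BDL replicate 1 was the highest BDL library, and control replicate 1 the lowest control library.

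**Figure D2:**
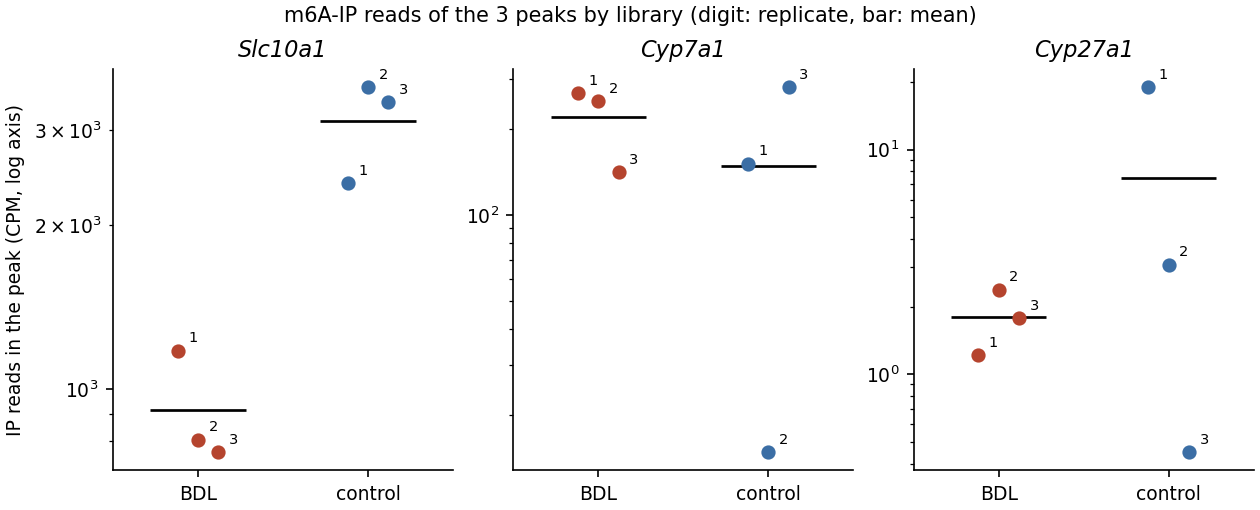
IP reads of each peak in CPM on a log axis, with BDL libraries on the left and control libraries on the right of each panel. Digits give the replicate and bars the mean of 3 libraries, and each panel has its own range. Slc10a1 separates the groups, Cyp7a1 has control replicate 2 far below the other libraries, and Cyp27a1 spans a wide range in control.

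Cyp7a1 did not pass the test, and its control libraries were far apart. Its read counts were 5939, 9977 and 4383 for the BDL libraries and 2082, 247 and 4961 for the controls. This gave 267, 250.4 and 141 CPM in BDL and 152, 14.9 and 279 CPM in control. The groups overlapped, because control replicate 3 was above all BDL libraries while control replicate 2 was below all others. The mean was 219 ± 68.0 CPM in BDL and 149 ± 132 CPM in control (SD, n = 3 each). BDL over control came to 0.56 on the log2 scale per peak (SE 0.80, edgeR adjusted p = 0.722), with a 95% interval of -1.27 to 2.40. Neither an increase to 5.27-fold nor a decrease to 0.414 of the control level lies outside this interval. Without control replicate 2 the log2 value per gene was 0.0071 (SE 0.35), and without control replicate 3 it was 1.37 (SE 0.82, edgeR adjusted p = 0.330).

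The spread of Cyp7a1 between control livers was large for its level. The highest library exceeded the lowest by 1.88-fold in BDL and by 18.8-fold in control. The SD of log2 CPM was 0.50 in BDL and 2.23 in control. Of the 500 tested peaks nearest to it in mean BDL level, 96.2% had a smaller SD in BDL. For the 500 nearest in control the share was 99.8%. Control replicate 2 held 19251404 reads in peaks, within the control range of 15254737 to 19378332, and its TMM factor of 0.862 was the lowest of the 6 libraries. Its Slc10a1 level, 3591 CPM, was the highest of the 6. What set this library low in Cyp7a1 was not tested.

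Genes of the circadian clock were set beside Cyp7a1 because the labels give no time of day. Of 21 listed clock genes 8 were tested. Their sum was lowest in control replicate 1, but it mixes activators and repressors and so cannot show a shift of the clock. The summed level, to which Rora, Bhlhe40 and Nr1d2 gave the most, was 873, 884 and 856 CPM in BDL and 563, 765 and 891 CPM in control. Rora, a nuclear receptor that activates clock transcription, was the only listed clock gene to pass, 1 of 8 tested. Of all tested genes 8.2% were called higher. Rora had a log2 change of 0.90 (SE 0.25, edgeR adjusted p = 0.0449), and of the 6 fits that left out a library it passed 1. Nr1d2, a clock repressor, had 208, 149 and 134 CPM in BDL and 116, 137 and 149 CPM in control. Tef, a clock output factor related to Dbp, had 91.9, 97.8 and 36.6 CPM in BDL and 57.1, 51.8 and 129 CPM in control. Tef was thus lowest in BDL replicate 3 and control replicate 2, the libraries that were also lowest for Cyp7a1 in their group. Gene by gene, 4 of the 8 (Tef, Per2, Cry2 and Rora) had their lowest control value in replicate 2. Another 3 (Nr1d2, Bhlhe40 and Noct) had it in replicate 1 and none in replicate 3. Per1 had no reads in control replicates 1 and 3. In BDL, Cry2 was lowest in replicate 3 like Tef, while Per2 and Rora were lowest in replicate 1. The period gene Per2 had 11.6, 18.4 and 14.4 CPM in BDL and 18.1, 8.42 and 31.7 CPM in control, and the cryptochrome gene Cry2 had 15.6, 15.8 and 6.42 CPM in BDL and 33.1, 21.1 and 28.2 CPM in control. Per1, Per2, Cry2 and Noct were named after their values had been seen. Bhlhe40, a clock repressor, had 304, 249 and 290.2 CPM in BDL and 179, 390 and 352 CPM in control. Dbp was not analysed here, and whether time of day had a part in the Cyp7a1 values was not tested.

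**Figure D3:**
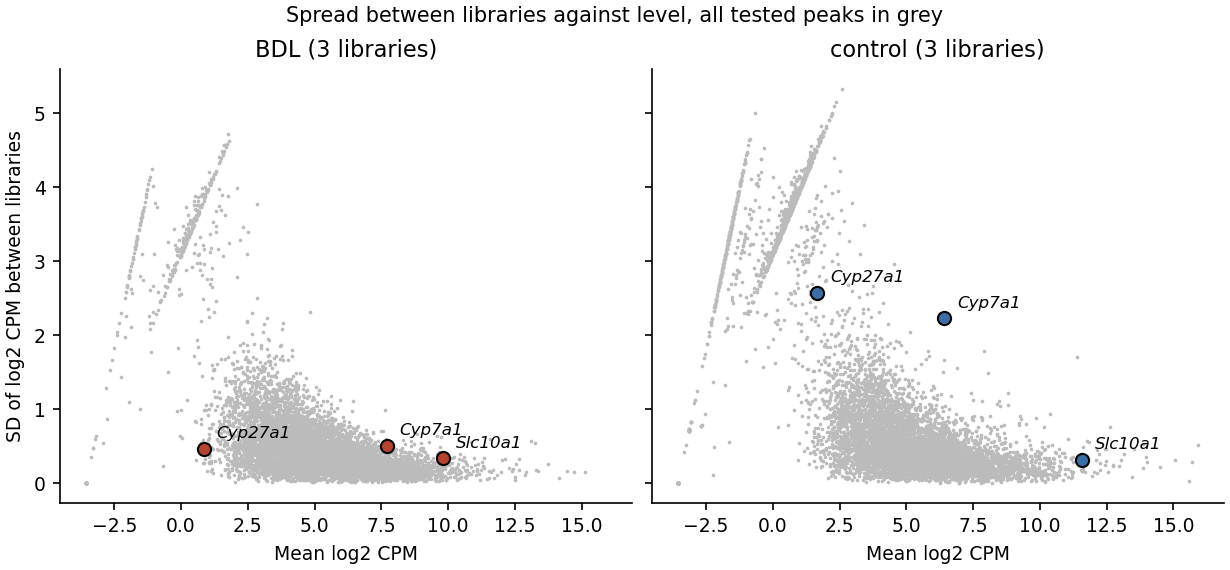
SD of log2 CPM between the 3 libraries of a group against mean log2 CPM, for all 7083 tested peaks in grey and the 3 named peaks in colour, BDL on the left and control on the right. In control Cyp7a1 stands above nearly all peaks of its level with an SD of 2.23, while Slc10a1 lies within the cloud.

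Cyp27a1 was close to the detection limit and did not pass. Its read counts were 27, 95 and 55 for the BDL libraries and 260, 51 and 8 for the controls. These were 1.21, 2.38 and 1.78 CPM in BDL and 18.9, 3.07 and 0.451 CPM in control. Control replicate 1 was above, and control replicate 3 below, all BDL libraries. The mean was 1.79 ± 0.586 CPM in BDL and 7.49 ± 9.998 CPM in control (SD, n = 3 each). Only 1.82% of tested peaks had a lower mean in BDL and 18.8% in control. Per length of peak, these shares were 7.58% in BDL and 46.4% in control. The log2 value was -2.06 per peak (SE 1.496, edgeR adjusted p = 0.457), with a 95% interval of -5.51 to 1.39. Its size rested on control replicate 1, without which the log2 value per gene was 0.011 (SE 1.74). The highest library exceeded the lowest by 1.97-fold in BDL and by 42.0-fold in control, and 21.0% and 72.6% of the 500 peaks nearest in level in BDL and in control had a smaller SD. The peak covers 50 bases, so these reads say little about the rest of the Cyp27a1 transcript.

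Levels of the 3 genes were compared per length of peak. In BDL Slc10a1 had 4578 ± 1132 CPM per kb of peak, Cyp7a1 1097 ± 340 and Cyp27a1 35.8 ± 11.7 (SD, n = 3), and the ranges of neighbours in this order did not overlap. In control the order was the same, with 15599 ± 3202 for Slc10a1, 743 ± 661 for Cyp7a1 and 149.7 ± 199.96 for Cyp27a1, but the ranges of Cyp7a1 (74.5 to 1397) and Cyp27a1 (9.01 to 379) overlapped.

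Ratios within a library are free of any scaling between libraries. Cyp7a1 reads were 22.7%, 31.1% and 18.5% of the Slc10a1 reads in BDL, against 6.34%, 0.415% and 8.27% in control. All 3 BDL ratios were above all 3 control ratios, and the log2 difference was 3.08. This difference was 1.70 without control replicate 2, 3.67 without control replicate 1 and 3.86 without control replicate 3. The ratio includes the fall of its divisor Slc10a1 (log2 change -1.79 per gene), so it does not describe Cyp7a1 alone. The exact two-sided permutation test gave p = 0.1, the smallest that 3 against 3 libraries allow, and 0.2 after Benjamini-Hochberg adjustment over the 4 ratios examined, which were chosen after the values had been seen. The groups overlapped for Cyp27a1 over Slc10a1 (exact p = 0.6) and for Cyp27a1 over Cyp7a1 (exact p = 0.4). Slc10a1 reads were also set against hepatocyte markers. They were 1.53%, 1.12% and 1.23% of those of 11 tested hepatocyte marker genes in BDL and 1.84%, 3.34% and 3.78% in control (exact p = 0.1, adjusted 0.2), and these groups did not overlap. The fibrinogen chain gene Fga alone held 80.0% to 84.2% of the marker reads of a library. Without Fga the shares were 8.59%, 7.08% and 7.53% in BDL and 11.02%, 17.4% and 18.9% in control, and the log2 difference was -0.99, against -1.16 with it.

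Around these members, the bile acid pathway was described with 6 lists of 79 genes in all. Of these genes 35 had a peak, 3 of them only a peak shared with another gene, and 32 were tested. A gene low in 1 group could pass the filter through the other. In BDL 8 of the 32 fell and none rose, so 25% were called lower where 6.55% of all tested genes were. In 10 of them every BDL value was below every control value and in 1 it was above, where 17.3% and 21.6% of all tested genes were so, 38.9% in all. Their median log2 change was -0.33, against 0.03 over all tested genes. Values in the following paragraphs are sums per gene, scaled to the reads of peaks with a single gene, so Slc10a1 is higher here than above.

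Among carriers and exporters, 2 of 7 tested genes fell out of 18 listed, where 6.55% of all tested genes were called lower. The 2 were uptake carriers. Slco1a1, a sodium-independent organic anion carrier of the hepatocyte, had 0.527, 0.759 and 0.608 CPM in BDL and 1369, 1546 and 1297 CPM in control. No BDL library came near a control library. Slc10a1 had 1381, 938 and 901 CPM in BDL against 2870, 4251 and 3984 CPM in control. Slco2b1, another uptake carrier, was at -0.74 on the log2 scale (SE 0.23) and did not pass edgeR (adjusted p = 0.0629), while DESeq2 passed it with -0.73 (adjusted p = 0.0402). The canalicular exporter Abcc2 had a log2 value of -0.27 (SE 0.19, adjusted p = 0.417), and the sterol exporter subunit Abcg5 one of 0.43 (SE 0.25, adjusted p = 0.310), both from edgeR. The bile salt export pump Abcb11 was not analysed here, nor were Slco1b2 and the basolateral exporters Abcc3 and Abcc4.

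In the synthesis of bile acids, the later-step genes Akr1c6, Slc27a2 and Amacr passed, while Baat and Acox2 did not. Neither entry enzyme passed, but their log2 values per gene were imprecise, at 0.54 (SE 0.78) for Cyp7a1 and -2.09 (SE 1.48) for Cyp27a1. The Cyp27a1 value was close to that of Akr1c6, which passed. A difference between entry and later steps was not tested. Of the ring-modifying enzymes 3 of 12 were tested, and Akr1c6, a hydroxysteroid dehydrogenase, fell. It had 40.9, 19.8 and 31.8 CPM in BDL against 128, 184 and 87.6 CPM in control, a log2 change of -2.11 (SE 0.38, edgeR adjusted p = 0.00837). Close relatives of Akr1c6 can share its reads, so this value is uncertain. Of the side chain and conjugation genes 4 of 10 were tested and 2 fell, where 6.55% of all tested genes were called lower. Slc27a2, a peroxisomal and microsomal acyl-CoA synthetase that activates sterol side chains, had 1356, 1087 and 892 CPM in BDL against 3703, 3636 and 3107 CPM in control, a log2 change of -1.65 (SE 0.19, edgeR adjusted p = 9.74e-04). Amacr, the racemase that prepares the side chain for shortening, had 348, 296 and 266 CPM in BDL and 598, 725 and 571 CPM in control. This was a difference of -1.06 on the log2 scale (SE 0.18), which passed edgeR (adjusted p = 0.00612). Baat, which joins bile acids to amino acids, was at -0.37 (SE 0.16) and did not pass (adjusted p = 0.181). The peroxisomal oxidase Acox2 was at -0.15 (SE 0.46).

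None of 4 tested genes that supply electrons or cholesterol to the P450 enzymes passed edgeR. DESeq2 passed none of the 3 to which it gave an adjusted p, and gave none to Por. Fdx1, the ferredoxin that passes electrons to mitochondrial enzymes such as Cyp27a1, had 13.6, 7.16 and 3.61 CPM in BDL against 8.13, 13.8 and 10.9 CPM in control. Cyb5a, an electron donor in the endoplasmic reticulum, had a log2 value of -0.68 (SE 0.50), and the cholesterol transfer protein Stard3 one of -0.40 (SE 0.47). Por, the reductase that serves microsomal enzymes such as Cyp7a1, is named beyond the rule for named genes because its reads lay in a single control library. It held 163, 251 and 162 reads in BDL and 212, 0 and 0 in control.

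Among receptors and regulators 1 of 10 tested genes fell out of 21 listed, where 6.55% of all tested genes were called lower. Ppara, a lipid-sensing nuclear receptor, had 138, 148 and 111 CPM in BDL against 438.4, 438.1 and 442 CPM in control, a log2 change of -1.73 (SE 0.18, edgeR adjusted p = 6.80e-04). Rxra, the partner of FXR and of other nuclear receptors, had a log2 value of -0.27 (SE 0.19), and Cebpb, a stress-responsive factor, one of 0.32 (SE 0.29). Hnf4a, which maintains hepatocyte transcription, had 1508, 1430 and 1353 CPM in BDL and 2107, 1322 and 1796 CPM in control, so its groups overlapped. The genes of FXR (Nr1h4), SHP (Nr0b2) and the receptor Fgfr4 were not analysed here.

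Of 4 tested detoxification genes, 2 fell, where 6.55% of all tested genes were called lower. The 2 genes encode glucuronosyltransferases, which make sterols and drugs soluble. Ugt2b1 had 156, 93.2 and 105 CPM in BDL against 2125, 2693 and 1883 CPM in control, a log2 change of -4.24 (SE 0.26, edgeR adjusted p = 2.91e-05). Ugt2b5 had a log2 change of -1.13 (SE 0.22, edgeR adjusted p = 0.0114) and did not pass without BDL replicate 2 (0.0612) or BDL replicate 3 (0.0564). Members of the Ugt2b family are alike enough to share reads. The bile acid hydroxylase Cyp3a11 had a log2 value of 0.05 (SE 0.37), and its relative Cyp3a13 one of 0.28 (SE 0.27).

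**Figure D4:**
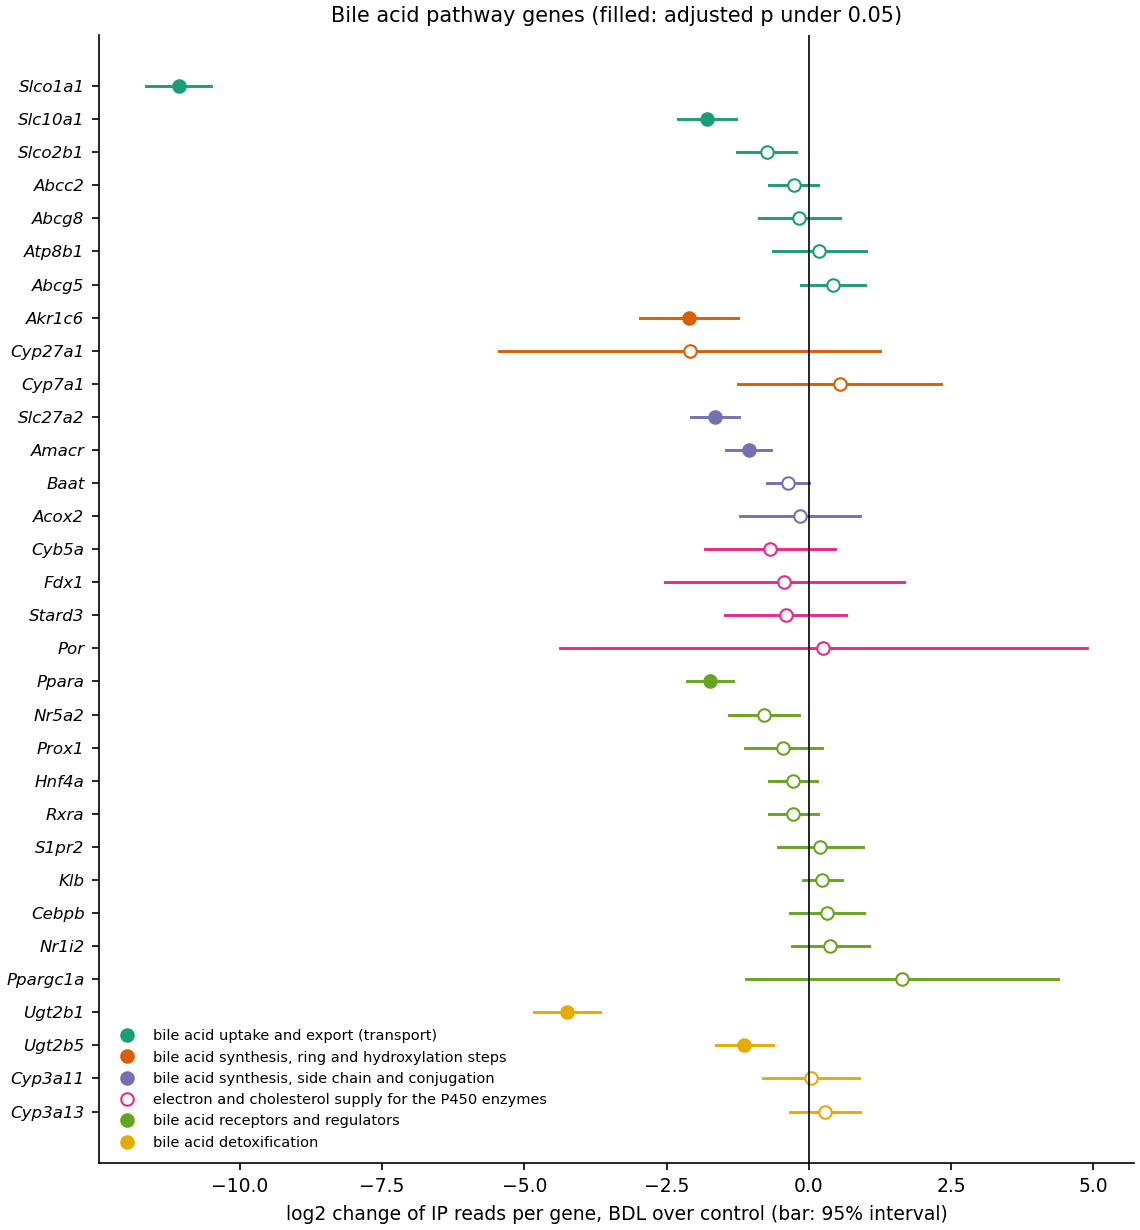
Log2 change of IP reads per gene, BDL over control, for the 32 tested bile acid pathway genes, grouped by list, with 95% intervals from edgeR. Filled points passed at an adjusted p under 0.05. All 8 filled points are on the lower side, and Cyp7a1 and Cyp27a1 have wide intervals that include 0.

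The genes with the most similar profile to each member were found among the better measured genes, those with a mean log2 CPM above the median. Likeness was the root mean square difference of log2 CPM over the 6 libraries, after each gene's own mean was subtracted, so small values mean alike. For Slc10a1 these were Il1rap, the interleukin-1 receptor accessory protein (0.17), Prr16, a regulator of cell size (0.17), and Egfr, the epidermal growth factor receptor (0.18). The median over 2118 genes was 0.94. Egfr had 315, 242 and 260 CPM in BDL against 733, 1088 and 768 CPM in control. Il1rap had 76.7, 55.4 and 52.8 CPM in BDL against 150.3, 188 and 252 CPM in control, and Prr16 had 355, 340 and 280 CPM in BDL against 812, 1118 and 1225 CPM in control.

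The profile of Cyp7a1, with its drop in control replicate 2, was matched less closely. Nearest were Glt1d1, a protein with a glycosyltransferase domain (0.49), Smad1, a transducer of bone morphogenetic protein signals (0.72), and Slc15a4, a lysosomal peptide and histidine carrier (0.73), where the median over all compared genes was 1.54. Glt1d1 had 221, 203 and 166 CPM in BDL and 124, 25.6 and 161 CPM in control. Smad1 had 110, 103 and 98.1 CPM in BDL and 50.006, 17.9 and 74.6 CPM in control. Slc15a4 had 110, 102 and 79.9 CPM in BDL and 92.8, 27.8 and 165 CPM in control. All 3 were lowest in control replicate 2, as Cyp7a1 was, which follows from their choice by likeness to it. None of the 3 passed edgeR (adjusted p from 0.146 to 0.978).

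For Cyp27a1 the nearest were Rab11fip4, an adaptor of the recycling GTPase Rab11 (0.86), Mt1, a metallothionein (0.97), and the cyclin Ccnl2 (1.09), with a median of 1.62. Mt1 had 505, 332 and 361 CPM in BDL and 786, 415 and 70.4 CPM in control. It shared the order of the control libraries with Cyp27a1, a likeness by which it was chosen. Rab11fip4 had a log2 value of -0.33 and Ccnl2 one of -0.49, and neither passed edgeR (adjusted p = 0.773 and 0.552).

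**Figure D5:**
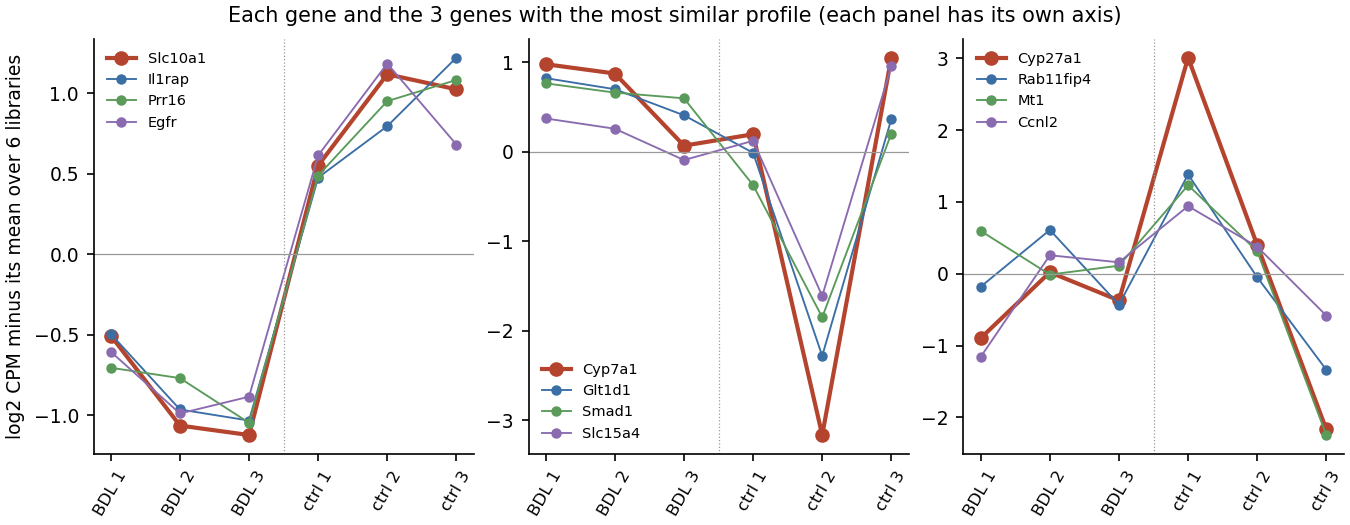
Log2 CPM of each member (thick line) and of the 3 genes most like it, after subtraction of each gene's mean, with the 3 BDL libraries on the left and the 3 control libraries (ctrl) on the right. The Slc10a1 group steps between BDL and control, the Cyp7a1 group drops in control replicate 2, and the Cyp27a1 group descends over the control libraries.

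Markers of the liver's cell types did not all move in the direction of Slc10a1. Of 11 tested hepatocyte markers 4 fell (Apoa2, Apob, Ttr and Cebpa) and none rose, where 6.55% of all tested genes were called lower. Without 1 library, Apob passed in 1 and Ttr in 2 of the 6 fits, while Apoa2 and Cebpa passed in all 6. The summed level, mostly Fga, was 73287 to 90546 CPM in BDL and 105316 to 156341 CPM in control. Of 4 tested markers of hepatocytes near the central vein, the glutamate carrier Slc1a2 (log2 change -2.15, SE 0.33) and the transcription factor Tbx3 (-2.26, SE 0.31) fell. Of all tested genes 6.55% were called lower. None of 4 portal markers passed edgeR. The central vein markers summed to 135 to 267 CPM in BDL and 612 to 652 CPM in control, and control replicate 2 had the highest of these sums. The cholangiocyte markers Cldn4, Cd24a and Ehf rose, 3 of 6 tested, where 8.2% of all tested genes did, and the list summed to 2155 to 3439 CPM in BDL and 545 to 688 CPM in control. The macrophage and monocyte genes Gpnmb, Cd14, Cx3cr1 and Cd5l rose, 4 of 6 tested, where 8.2% of all tested genes did. Their list had sums of 5595 to 6789 CPM in BDL and 1771 to 2993 CPM in control. Without 1 library Cd5l passed in 1 of the 6 fits and Cx3cr1 in 4. Clec4f, a Kupffer cell gene of the same list, had every BDL value below every control value (log2 value -0.60, edgeR adjusted p = 0.147), as 17.3% of all tested genes had. Of 2 tested stellate cell and fibroblast genes Pdgfra rose, where 8.2% of all tested genes did, and 4 of its 6 fits with a library left out passed. Of 7 tested endothelial genes Ehd3 fell, where 6.55% of all tested genes were called lower, and 6 did not pass. Among these 6 were Fcgr2b at 0.02 and Cdh5 at 0.68 (edgeR adjusted p = 0.0946). Cdh5 had every BDL value above every control value, as 21.6% of all tested genes had. Clec4f, Cdh5 and Fcgr2b were named after their values had been seen. The part of these cell types in the values of Slc10a1, Cyp7a1 and Cyp27a1 was not tested.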

How the data were processed

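For a common set of merged peaks the deposited table gives, for 6 IP libraries, a raw count of reads. It also holds a normalised score that the authors derived from those reads, which served only as a check. Per the submitters' processing notes, bcl2fastq 2.17, fastp, Bowtie2 2.2.8 and HISAT2 were used. Peak caller, counter, strand setting, build and annotation were not stated. The 8649 lines hold 7460 distinct peaks, with 20540863 to 35691860 reads in BDL and 15254737 to 19378332 in control. All IP libraries were fitted together with edgeR 4.0.16 in R 4.3.3 (filterByExpr, TMM, robust quasi-likelihood test, Benjamini-Hochberg, threshold 0.05), by peak and by gene, summing the peaks of 1 gene alone. DESeq2 1.42.0 was an alternative. The scripts were tested on simulated data. No member had several peaks, so peaks within a gene were not compared.

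The labels number the libraries without stating separate mice. The p-values therefore weigh group differences against the spread between these libraries, and may not extend to other mice. Whether equal library numbers pair the groups is not stated. Deviations from the group mean correlated at 0.0092 to 0.029 for same-numbered libraries and at -0.027 to 0.019 for the others. Such values cannot settle whether the design was paired. Named genes were all members, every listed gene that passed, up to 3 others per pathway list with the highest mean CPM, and the 3 genes most like each member. Members and lists were chosen with earlier results of these data known. Sequence is from RefSeq.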

Additional observations from a re-analysis of the deposited data

How the results depend on the processing

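Slc10a1 passed under all alternatives run, with a log2 change per gene from -2.01 to -1.51. Cyp7a1 and Cyp27a1 passed under none, with adjusted p from 0.205 to 0.997 per gene. The log2 value of Cyp27a1 turned to 0.011 per gene and 0.024 per peak without control replicate 1, and over the fits without 1 library it ranged down to -2.65 per gene and -2.61 per peak. It has no value with a minimum of 50 reads throughout 1 group or when peaks of 75 bases or less are left out. The replicate block gave 1.15 per gene for Cyp7a1, -0.69 for Cyp27a1 and -1.80 for Slc10a1, and changed the call of none of them. The number of peaks called was 649, against 1169 with DESeq2, 287 with the replicate block and 155 to 611 without 1 library. For genes it was 635, against 415 with the replicate block and 223 to 622 without 1 library. Of the bile acid genes 8 were called, 9 with DESeq2, and 7 to 9 without 1 library. Por passed without control replicate 1, at 10.32 (adjusted p = 0.0308) against 2 control libraries with no reads, a fitted value that is no bound. The ratio of Cyp7a1 to Slc10a1 reads differed by 1.70 to 3.86 on the log2 scale without 1 library, and that of Slc10a1 to the hepatocyte markers by -1.47 to -0.95, alternatives chosen after seeing the data, as was leaving Fga out of the markers. Scaling by library totals moved the median over all genes to 0.31 on the log2 scale and called 530 genes higher and 168 lower, against 353 and 282 with TMM.

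Single genes turned direction 24 of 634 times, none of them a call, and the cause was not tested. With library totals alone these were Abcc2 (0.0055), Acox2 (0.11), Rxra (0.0058), Bhlhe40 (0.15), Tef (0.19) and Mt1 (0.18), and with the replicate block Rab11fip4 (0.036) and Mt1 (0.40). The others arose without 1 library, over which Acox2 ranged from -0.41 to 0.31, Bhlhe40 from -0.40 to 0.082, Cyp3a11 from -0.19 to 0.29, Tef from -0.31 to 0.47, Mt1 from -0.59 to 0.72, Rab11fip4 from -0.77 to 0.63, Slc15a4 from -0.41 to 0.69 and Por from -0.33 to 10.32. Apob, Rora, Cd5l, Ttr, Pdgfra, Ugt2b5 and Cx3cr1 lost their call in at least 1 alternative, 29 times in all, with adjusted p up to 0.204.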
